A study of Mus musculus with 2 samples.

Results

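Fabp6 encodes the ileal bile acid binding protein, a small protein that carries bile acids through the cytosol of absorptive cells. The cells described here are mouse colon epithelial cells in which this RNA is abundant. They were picked in each of 2 single-cell libraries by counts of unique molecular identifiers (UMIs, each standing for 1 captured RNA molecule). Barcodes with at least 5000 UMIs and at most 25% UMIs of mitochondrial genes were kept. Of these, a member had at least 5 Fabp6 UMIs per 10000, fewer than 20 UMIs per 10000 of the goblet cell mucin Muc2, and at most 1 UMI of Atp12a, the colonic proton-potassium pump. It also did not have 2 or more UMIs of both Krt20 and Clca4a, genes of colonocytes at the luminal surface. In all, 266 of 9329 kept barcodes were members. The library labelled whole epithelium held 246 of 5366, or 4.58% (exact Clopper-Pearson 95% interval 4.04 to 5.18), and the library labelled GFP held 20 of 3963, or 0.505% (0.309 to 0.778). The cells were thus chosen by the measured values of Fabp6, Muc2, Atp12a, Krt20 and Clca4a, so these are given only as a description.

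The libraries are named after their labels as the whole-labelled library (whole epithelium) and the GFP-labelled library. For the former, untreated c-Kit-creERT2 mice were used. For the latter, the mice were c-Kit-creERT2;Rosa26-mTG and had 1 intraperitoneal injection of tamoxifen at 1 mg per 20 g body weight, and its cells were sorted for GFP. The recombinase is driven from Kit, so a GFP-positive cell is one in which Kit was active around the injection, or a descendant of one. Mice of both groups carry the c-Kit-creERT2 allele, and the sort makes cell shares of the 2 libraries differ by design. Ages and numbers of mice are not given in the labels. Epithelium of the whole colon was released with EDTA and dissociated with an enzyme, so cells of all positions along the colon were mixed.

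Bile acids that escape absorption in the ileum reach the colon. In the absorptive cells of the ileum, Slc10a2 (the apical sodium-dependent bile acid transporter) takes bile acids up from the lumen, Fabp6 binds them, and Slc51a and Slc51b, the subunits of the organic solute transporter, pass them to the blood side. Nr1h4 encodes FXR, the nuclear receptor for bile acids, and Fabp6, Slc51a, Slc51b and the hormone gene Fgf15 are among its known targets in the ileum.

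The stretches before the start sites of the 4 transport genes are printed for the following reason. In the whole-labelled library, these genes were higher together where Fabp6 was higher among the members, as were some genes outside the pathway. The GFP-labelled library has too few members to tell. In the GENCODE annotation of GRCm38, the genes lie at chr11:43596049-43601540 (Fabp6), chr16:32474504-32487879 (Slc51a), chr9:65412714-65422955 (Slc51b) and chr8:5083219-5105351 (Slc10a2). The stretches come from RefSeq on GRCm38.p6, are given 5' to 3' on the minus strand, and leave out bases that lie inside the gene as GENCODE draws it. They span chr11:43601563-43601812 for Fabp6, chr16:32487880-32488129 for Slc51a, chr9:65422956-65423023 for Slc51b and chr8:5105352-5105537 for Slc10a2. Capitals mark matches to 1 of 3 patterns searched on both strands of the 250 bases before each start site.
Fabp6: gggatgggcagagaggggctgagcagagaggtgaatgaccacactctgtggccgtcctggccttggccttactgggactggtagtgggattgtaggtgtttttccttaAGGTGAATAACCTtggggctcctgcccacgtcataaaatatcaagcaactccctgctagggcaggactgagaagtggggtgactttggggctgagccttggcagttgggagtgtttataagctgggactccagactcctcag
Slc51a: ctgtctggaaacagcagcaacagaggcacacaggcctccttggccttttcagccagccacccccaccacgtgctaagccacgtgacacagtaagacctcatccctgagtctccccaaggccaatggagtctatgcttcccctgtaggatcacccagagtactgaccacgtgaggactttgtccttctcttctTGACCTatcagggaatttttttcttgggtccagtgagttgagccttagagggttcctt
Slc51b: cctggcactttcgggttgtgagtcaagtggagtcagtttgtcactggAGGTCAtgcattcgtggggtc
Slc10a2: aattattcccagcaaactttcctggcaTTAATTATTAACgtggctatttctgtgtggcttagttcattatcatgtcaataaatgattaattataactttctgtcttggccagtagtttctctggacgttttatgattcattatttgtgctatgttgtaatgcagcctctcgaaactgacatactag
The capitals in Fabp6 match AGGTGA and TNACCT with 1 base between (N is any base), an inverted repeat of the kind that FXR binds, at -142 to -130 from the start site. This pattern occurs in 3 of 32851 such windows (0.00913%). Its first part is spelled as in Fabp6 and differs from the hexamer named next, so the low share does not weigh the match. The capitals in Slc51a and Slc51b match the nuclear receptor hexamer AGGTCA, at -58 to -53 and -203 to -198, which 14.0% of windows hold; in Slc51a it is read on the other strand. Those in Slc10a2 match, on the other strand, GTTAAT and ATTAA with 1 base between, a pattern bound by the HNF1 proteins, at -223 to -212, which 20 windows hold (0.0609%). A match describes letters and shows no binding.

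With a single library in each group, nothing below could be checked against replicates, and no difference was tested. Levels are in CPM, the UMIs of a gene in a group of cells, scaled so that the group's total is the same everywhere (10000 CPM are 1% of a group's UMIs), and carry exact Poisson 95% intervals. Differences are log2 ratios of CPM with exact binomial 95% intervals. All intervals cover counting error only. A gene counts as higher or lower when the CPM of 2 groups differ at least 2-fold and 1 of them is at least 10 CPM. The libraries held 13967 and 13575 barcodes with 164185392 and 150348319 UMIs, in the order whole epithelium, GFP. The matrices are crossed in the records, and each was given to the sample whose barcode list has its number of columns. Every direction between libraries rests on that and would turn with the reverse assignment. The libraries shared 60 barcodes, none of them a member. Xist, at 1 UMI in the members of the whole-labelled library and 675 CPM in those of the GFP-labelled library, shows that the animals also differed in sex.

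The members held 5770704 UMIs in the whole-labelled library and 598229 in the GFP-labelled library, with a median of 21548 UMIs per cell (5098 to 99617) and 29053 (6728 to 87567). A gene at 10 CPM thus stands for 57.7 and 5.98 UMIs, and ratios that involve the 20 cells of the GFP-labelled library are far less certain. The label rests on Fabp6, Slc51a and Car1, the cytosolic carbonic anhydrase of proximal and surface colonocytes, and the rule used only Fabp6 of these. Among members of the whole-labelled library, Slc51a had a UMI in 211 of 246. All 246 had a Car1 UMI, as did 767 of the 806 barcodes high in Muc2, which should hold little Car1. The 95th percentile of those barcodes was 96.5 Car1 UMIs, which 167 members exceeded and 79 did not. The median was 182 Car1 UMIs in members and 5 in the barcodes high in Muc2. Most members of this library thus carry the markers, though not all.

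In the GFP-labelled library the data go against the name. Slc51a had a UMI in 3 of 20 members, with 1, 1 and 7 UMIs. Car1 had 486 and 1077 UMIs in 2 of the cells and 8 to 31 in the other 18. The 982 barcodes high in Muc2 had a median of 15 Car1 UMIs and a 95th percentile of 179.95. The 18 cells lie below that percentile, and the median over all 20 members was 15.5. Low values of both genes also occur in colonocytes of this library. Its Atp12a-positive colonocytes, a class defined below, had a median of 22 Car1 UMIs, and 27 of 386 had a Slc51a UMI. Its surface colonocytes had a median of 183.5 Car1 UMIs, and 197 of 510 had a Slc51a UMI. Hoxb13, a Hox gene of the most distal colon, had a UMI in 16 of the 20 and in 337 of the 386 Atp12a-positive colonocytes. Most of the 20 cells lack Slc51a and have little Car1, 2 of the 3 genes behind the label. They are therefore called Fabp6-high barcodes of the GFP-labelled library rather than colonocytes of the named kind.

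**Figure D1:**
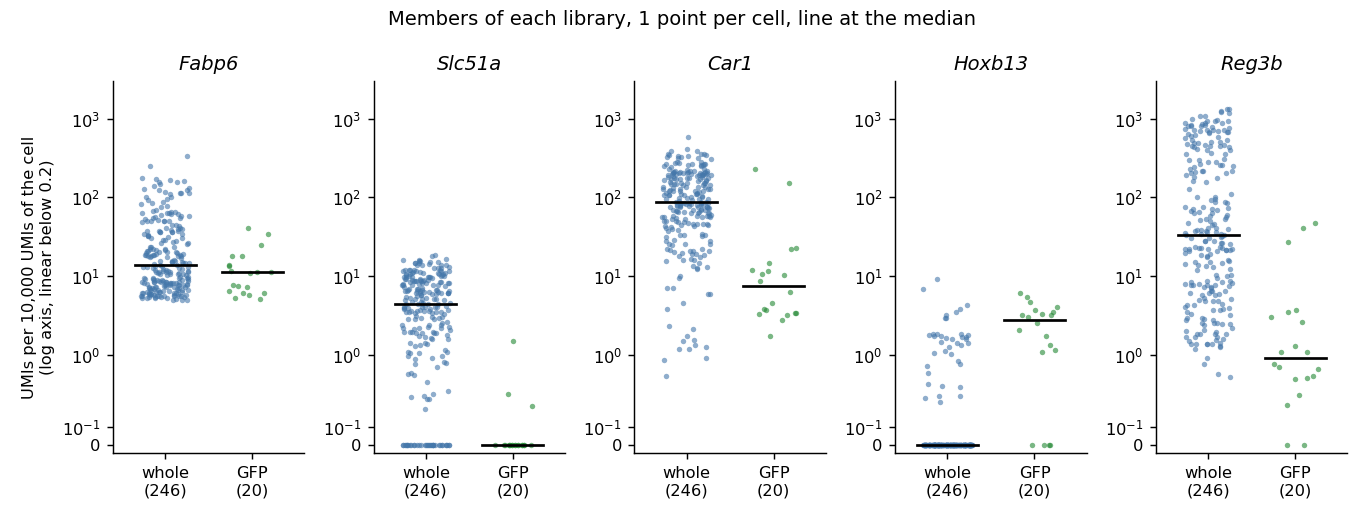
Each point is 1 member, by library, with a line at the median. The y axes give UMIs per 10000 of the gene named above each panel on a log axis that is linear near 0. Most of the 246 cells of the whole-labelled library carry Slc51a and Car1 together, while 17 of the 20 cells of the GFP-labelled library have no Slc51a UMI and 16 have Hoxb13.

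The contrast was also present after every cell had been thinned to 5000 UMIs. Then 75.2% (69.3 to 80.5) of members in the whole-labelled library and 5% (0.127 to 24.9) in the GFP-labelled library had a Slc51a UMI. The barcodes high in Muc2, which give the level that free RNA can reach, had 13.0% and 3.05% (25.7% and 11.7% before thinning, at median depths of 19352 and 25172). The interval of the GFP-labelled library includes the background share, but 1 of 20 cells cannot place it there. Hoxb13 was seen after thinning in 11.4% of members in the whole-labelled library and 60% in the GFP-labelled library, and before thinning in 15.9% and 80%. In barcodes high in Muc2 the thinned shares were 41.1% and 26.9% (59.3% and 52.2% before thinning). In Atp12a-positive colonocytes they were 81.4% and 57.0% (93.2% and 87.3% before thinning). A Hoxb13 UMI is therefore common in other cells of both libraries and does not by itself go against a colonocyte.

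Most Fabp6 RNA of the whole-labelled library lay in the members, with 18171 of 26781 UMIs in kept barcodes (67.9%). In the GFP-labelled library they held 685 of 2861 (23.9%). The other genes of the pathway were spread more widely. Members of the whole-labelled library held 23.3% of its Slc51a UMIs, 20.5% of its Slc10a2, 11.0% of its Slc51b and 9.19% of its Nr1h4. Another 56.9% of Slc51a UMIs lay in barcodes low in Muc2 that were neither members nor one of the 2 colonocyte classes used for comparison. Cells with 10 or more Slc51a UMIs numbered 110 among members and 239 among those other barcodes, of 417 in all. High Slc51a without membership was therefore common.

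The members were compared with 2 other colonocyte classes of the same library, cut by the same kind of rule. These were Atp12a-positive cells (576 in the whole-labelled library and 386 in the GFP-labelled library) and surface cells with Krt20 and Clca4a (442 and 510), called other colonocytes when pooled (1018 and 896). Of the 45 and 12 barcodes that had enough Fabp6 but too much Atp12a, all went to the former class. Members were deeper than both classes, with a median of 21548 UMIs against 19284.5 in Atp12a-positive and 13146.5 in surface cells of the whole-labelled library, and 29053 against 18412 and 19916 in the GFP-labelled library. The median mitochondrial share was 11.1% in members against 12.2% in other colonocytes of the whole-labelled library and 6.49% against 14.3% in the GFP-labelled library.

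In the whole-labelled library, the members carried more RNA of bile acid uptake and export than the other colonocytes. Slc10a2, the uptake transporter, was at 209 CPM (197 to 221) in members and 70.8 CPM in other colonocytes, a log2 ratio of 1.56 (1.45 to 1.67). Slc51a, the export subunit, was at 511 CPM (493 to 530) and 92.0 CPM, a log2 ratio of 2.47 (2.39 to 2.56). Slc51b, its partner subunit, was at 333 CPM (319 to 349) and 255 CPM, a log2 ratio of 0.39 (0.31 to 0.46). The pair of subunits thus differed by unequal amounts, and Slc51b did not reach 2-fold. Nr1h4, the receptor, was at 140 CPM (131 to 150) and 79.3 CPM, a log2 ratio of 0.82. Fabp6 itself, which the rule used, was at 3149 and 192 CPM.

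The 2 comparison classes did not stand equally far from the members. Slc51a was at 33.1 CPM in Atp12a-positive cells and 182 CPM in surface cells of the whole-labelled library, and Slc10a2 was at 32.0 and 130 CPM. Slc51b was at 195 CPM and at 346 CPM, so surface cells reached the members' level of 333 CPM. Car1 was at 11963 CPM in members, 2783 CPM in Atp12a-positive cells and 12858 CPM in surface cells. By these summed levels, the members thus had about the Car1 level of surface cells, with more Slc51a and Slc10a2 than either class. By the median cell, Car1 was higher in members than in surface cells. Scaled for depth in the unit of the Fabp6 limit, the Car1 median was 86.5 in members, 36.0 in surface cells and 13.3 in Atp12a-positive cells.

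The rest of the bile acid list moved little or was hardly measured. Of its 20 genes, 9 reached 10 CPM, and of these 3 were at least 2-fold higher in members and none lower, Fabp6 of the rule among the 3. Over all 7494 genes measured, 2.51% were at least 2-fold higher and 4.07% lower. The median log2 ratio of the list, Fabp6 of the rule included, was 0.39, against 0.04 over all genes. Abcc3, a basolateral exporter of bile acid conjugates, was at 123 and 103 CPM. Vdr, the vitamin D receptor, which also binds lithocholic acid, was at 245 and 217 CPM, and the xenobiotic receptor Nr1i2 at 35 and 39.8 CPM. Cyp3a13, a cytochrome of the family that hydroxylates bile acids, was the one measured gene besides Nr1i2 below the other colonocytes, at 150 and 203 CPM.

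Fgf15, the hormone gene that FXR switches on in the ileum, had no UMI in members of either library. Neither did Nr0b2, another FXR target, the bile acid receptor Gpbar1, the sulfotransferase Sult2a1 or Cyp3a11. A count of 0 allows up to 0.520 CPM in the members of the whole-labelled library and 5.01 CPM in those of the GFP-labelled library, taken as 3 UMIs over the group. The exporters Abcc2 and Abcc4 had 5 and 7 UMIs in the former and 1 each in the latter. Abcg5 and Abcg8, which export sterols as a pair, had 2 UMIs each there and 2 and 3 in the GFP-labelled library. Nr1i3, a xenobiotic receptor, had 6 and 1, and Ugt1a1, which conjugates bilirubin, had 26 and 1.

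**Figure D2:**
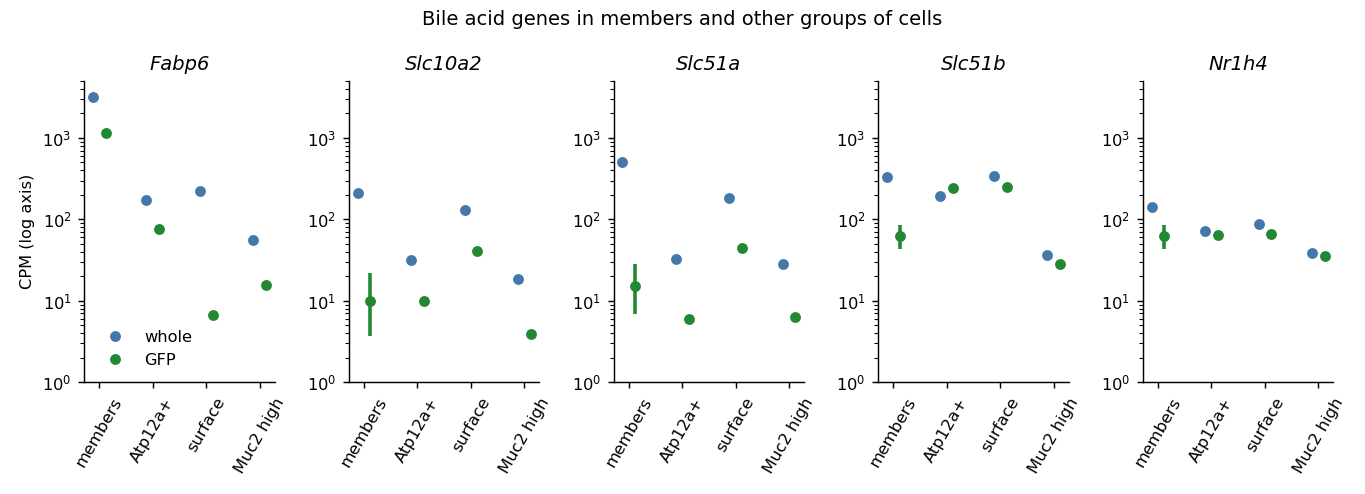
Levels of bile acid genes in CPM on a log axis, for members, the 2 comparison classes and barcodes high in Muc2 in each library, with exact Poisson 95% intervals. In the whole-labelled library Slc10a2 and Slc51a are highest in members (209 and 511 CPM), while in the GFP-labelled library the members lie at 10.0 and 15.0 CPM.

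Markers of other cell types were looked at in the same cells, since Fabp6 and Slc10a2 are best known from the ileum. Of 14 markers of ileal absorptive cells, 10 had a UMI in members of the whole-labelled library, with a range of 0 to 28.3 UMIs per 10000 over cells. Their summed level was 426 CPM against 308 CPM in other colonocytes. Slc10a2, reported above, made up 209 and 70.8 CPM of these sums, and the rest of the sum was not higher in members. Fgf15, Apoa4, Apoc3 and Lct were at 0. Sis, the brush border enzyme sucrase-isomaltase, was at 19.1 and 0.833 CPM. Of the 8 Paneth cell markers, 7 were at 0. The sum over 11 goblet cell markers, Muc2 of the rule included, was 466 CPM in members and 935 CPM in other colonocytes. Markers of tuft, B, and stromal cells summed to 0.866, 1.39 and 0.693 CPM, and those of T and NK cells to 19.2 CPM. Those of myeloid, stem and enteroendocrine cells summed to 197, 112 and 98.9 CPM, against 187, 119 and 144 CPM in other colonocytes. One barcode of each library that met a T cell rule (at least 2 Cd3 UMIs) was a member. In the whole-labelled library the other 213 such barcodes had a Fabp6 UMI in 15.5% of cases, at 34.1 CPM and a median depth of 4386 UMIs. That level is a background for Fabp6 and lies far below the 5 per 10000 of the rule. Doublets were not removed, and the part of cell mixtures in the results was not tested.

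Beyond bile acids, part of the members of the whole-labelled library carried high levels of antibacterial lectins. Reg3b, which like Reg3g encodes a secreted lectin that keeps bacteria away from the epithelium, had the highest summed level of all nuclear genes other than those of ribosomal proteins, at 23251 CPM (23126 to 23375) against 5274 CPM in other colonocytes. This sum rests on the 84 of 246 cells with 100 or more Reg3b UMIs per 10000, which held 95.3% of the Reg3b UMIs. The 80 members with fewer than 10 per 10000 stood at 370 CPM, a level bounded by that cut. By the median member, Reg3b (32.8 UMIs per 10000) lay below Lypd8 (126) and Car1 (86.5). The median for Reg3b was 2.87 in Atp12a-positive cells and 6.51 in surface cells. Reg3g was at 3567 and 1034 CPM. The log2 ratios were 2.14 and 1.79. Such levels were not particular to members. Barcodes of this library with 4 to 5 and 1 to 4 Fabp6 UMIs per 10000 had Reg3b at 21576 and 24141 CPM. They had Reg3g at 3900 and 3816 CPM, and those with no Fabp6 UMI had Reg3b at 8727 and Reg3g at 1519 CPM. Next in summed level came Lypd8, which keeps flagellated bacteria off the surface, at 13709 CPM against 23478, then Car1. Over all 7494 genes, 2.51% were at least 2-fold higher in members than in other colonocytes and 4.07% lower. Of 11 antimicrobial genes measured, 3 were higher (Reg3b, Reg3g and the defensin Defb37) and 4 lower, among them Duox2 and Duoxa2 of the hydrogen peroxide-producing oxidase. The list therefore moved in both directions.

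Of 18 genes of fatty acid oxidation measured and reported here, 3 were at least 2-fold higher and none lower, against 2.51% and 4.07% over all genes, with a median log2 ratio of 0.43 against 0.04. Ppara, the fatty acid receptor that drives the oxidation genes, was at 36.4 and 10.2 CPM. Pdk4, which curbs glucose oxidation, was at 65.2 and 17.5 CPM. Acaa2, the last enzyme of the mitochondrial cycle, was at 226 and 96.8 CPM. The lowest log2 ratio among these genes was that of the carnitine carrier Slc25a20, at -0.23.

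Drug- and toxin-metabolising genes leaned the same way, with 10 of 29 higher and 3 lower, against 2.51% and 4.07% over all genes. Their median log2 ratio was 0.54. The most abundant was Cyp2c55, at 654 and 466 CPM, and the highest ratio was that of Cyp2c66, at 10.7 and 2.04 CPM. Cyp2c68 was lower, at 18.4 and 69.1 CPM. All 7 measured genes of MHC class II, which presents peptides to CD4 T cells, were at least 2-fold higher, with a median log2 ratio of 1.68. Cd74, the invariant chain, was at 752 and 234 CPM, and Ciita, the transactivator of the group, at 23.1 and 6.57 CPM. Against surface cells alone (155 of 7468 genes, 2.08%, higher and 4.26% lower) only 1 of the 7 reached 2-fold, and Cd74 stood at 420 CPM there.

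Some genes of salt and water absorption were lower, while most did not reach 2-fold. Of 13 genes of carbonic anhydrases and electroneutral salt absorption, 3 were lower and 1 higher, against 4.07% and 2.51% over all genes. Slc26a3, the chloride-bicarbonate exchanger, was at 157 CPM (147 to 168) in members and 826 CPM in other colonocytes, a log2 ratio of -2.40 (-2.49 to -2.30). Car4, the membrane-bound carbonic anhydrase, was at 380 and 1588 CPM, and the exchanger gene Slc9a3 was the third. Slc4a4, the basolateral bicarbonate cotransporter, was higher at 133 and 64.1 CPM. Among water channels, Aqp8 was at 14.2 CPM (11.3 to 17.6) and 683 CPM, the widest gap of the list at a log2 ratio of -5.59, while Aqp11 was higher at 49.9 and 17.5 CPM. Of 27 mature colonocyte genes, 8 were lower and 1 higher, with a median log2 ratio of -0.63. Clca4a, used by the rule, and its relative Clca4b are among the 8.

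Genes of position along the gut differed in both directions. Of 12 measured genes of posterior Hox and colon position, 3 were higher (Hoxb6, Hoxb7 and Hoxb9) and 6 lower (Hoxa7, Hoxa9, Hoxa10, Hoxa13, Hoxb13 and Hoxd13). The shares over all 7494 genes were 2.51% higher and 4.07% lower. Hoxb13 was at 24.95 CPM (21.0 to 29.4) in members, 393 CPM in Atp12a-positive cells and 58.2 CPM in surface cells. Hoxd13 had 3 UMIs in all 246 members, 0.520 CPM, against 13.7 CPM in other colonocytes. Cdx2, the intestinal homeobox factor, was at 223 and 125 CPM. Isx, a homeobox gene that curbs vitamin A uptake in the small intestine, was the one differentiation factor at least 2-fold higher, at 128 and 44.7 CPM, and Creb3l3 the one lower, at 1.91 and 10.8 CPM.

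The interferon list did not separate members from other colonocytes in the whole-labelled library. Of 28 genes measured, none was higher and 1 was lower (Ifit1bl1, at 228 and 478 CPM), with a median log2 ratio of -0.07. Over all genes, 2.51% were higher and 4.07% lower. The classes differed here. Against Atp12a-positive cells (4.19% of 7538 genes higher and 4.71% lower) 5 were higher. Against surface cells (2.08% of 7468 genes higher and 4.26% lower) 7 of 29 were lower. No gene of the immediate early and heat shock list (23 measured) or of the mitochondrially encoded list (13) reached 2-fold.

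**Figure D3:**
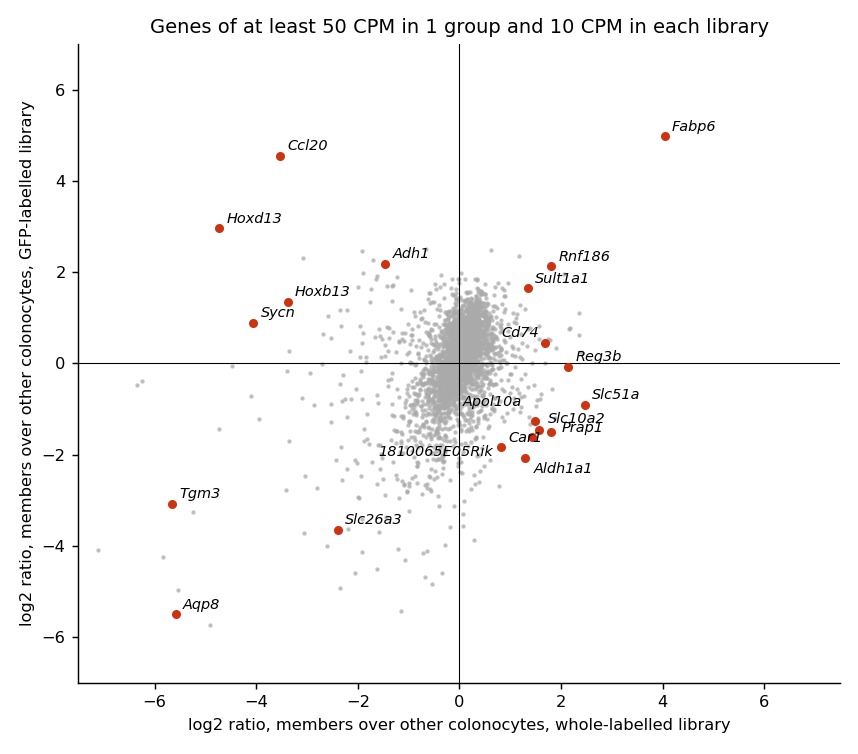
Each point is 1 of 3330 genes of at least 50 CPM in 1 group and at least 10 CPM in each library. The x axis gives the log2 ratio of members over other colonocytes in the whole-labelled library and the y axis the same in the GFP-labelled library. Fabp6, which chose the cells, is high in both, while Slc51a (2.47 and -0.91), Slc10a2 (1.56 and -1.47) and Hoxb13 (-3.38 and 1.36) take opposite signs.

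The members were not uniform. In the whole-labelled library, Fabp6 ran from 5.00 to 336 UMIs per 10000 with a median of 13.7. Slc51a ran from 0 to 18.6 with a median of 4.39 and 35 cells at 0. Slc51b had a median of 2.69, Slc10a2 of 0.775 with 90 cells at 0, and Nr1h4 of 1.30. Car1 ran from 0.539 to 584 with a median of 86.5. Slc51a was thus found in most members but at very different levels.

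The transport genes were higher where Fabp6 was higher. From the 96 members with 5 to 10 Fabp6 UMIs per 10000, over the 58 with 10 to 20 and the 44 with 20 to 50, to the 48 with 50 or more, Slc51a stood at 328 CPM (304 to 353), 494 (457 to 532), 597 (554 to 643) and 794 (743 to 849). The share of cells with a Slc51a UMI went from 75% to 84.5%, 95.5% and 100%. Slc51b stood at 241, 322, 365 and 490 CPM over the same bands, and Slc10a2 at 120, 202, 249 and 345 CPM. Nr1h4, the receptor, spanned the narrower range of 127 to 161 CPM (112 to 143 and 139 to 187). Such a rise was not particular to the transport genes. From the lowest band to the highest, Guca2a went from 3190 to 4276 CPM, Lypd8 from 11247 to 15849 and Cyp2c55 from 515 to 817. Reg3g, Mki67 and Hoxb13 were lower in the highest band than in the lowest. These values describe cells of 1 library, which share their preparation, and Fabp6 bands were not independent of the rule.

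**Figure D4:**
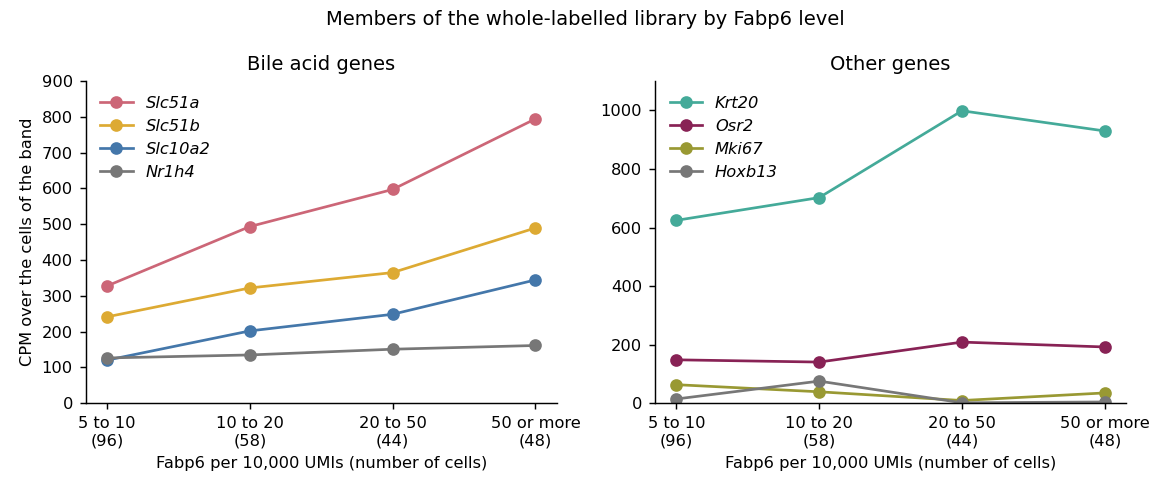
Levels of the bile acid transport genes in members of the whole-labelled library, in CPM, by band of Fabp6 UMIs per 10000. Left, Slc51a goes from 328 to 794 CPM and Slc10a2 from 120 to 345 CPM from the lowest band to the highest. Right, Krt20 of surface cells, the transcription factor gene Osr2, the proliferation gene Mki67 and Hoxb13 are shown likewise, and Krt20 is higher in the upper 2 bands than in the lower 2.

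The threshold of 5 cut through a continuous range. The 28 members just inside it, with 5 to 6 Fabp6 UMIs per 10000, had Slc51a at 362 CPM and Car1 at 10929 CPM. The 38 barcodes just outside, with 4 to 5 and otherwise meeting the rule, had 263 and 7753 CPM. In the GFP-labelled library there were 3 cells on each side.

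The 35 members of the whole-labelled library without a Slc51a UMI were compared with the other 211 in a split made after the values had been seen. They were shallower, with a median of 15147 UMIs against 22029. They had Car1 at 3852 against 12947 CPM, Fabp6 at 997 against 3410 CPM, Slc10a2 at 12.8 against 233 CPM and Slc51b at 110 against 360 CPM. Hoxb13 was at 112 against 14.4 CPM, and 14 of the 35 had a Hoxb13 UMI, as did 25 of the 211. The Hoxb13 level of the 35 lies below the 132 CPM of barcodes high in Muc2 of the same library, and 5 of the 35 had 3 or more Hoxb13 UMIs.

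Those 20 barcodes are themselves of more than one kind. The 2 with Car1 above the 95th percentile of Muc2-high barcodes held 8 of the 9 Slc51a UMIs, at 102 CPM (44.1 to 201). They had Slc51b at 153 CPM, Slc10a2 at 51.1 CPM, Car1 at 19962 CPM, Reg3b at 4317 CPM, and no Hoxb13. These 2 cells thus carry the marker set of the members in the other library, at a lower Slc51a level. The 18 others had Slc51a at 1.92 CPM (1 UMI), Slc51b at 48.1 CPM, Slc10a2 at 3.85 CPM and Car1 at 544 CPM (483 to 612). They had Hoxb13 at 333 CPM in 16 of 18 cells, Reg3b at 158 CPM, and Krt20 at 53.9 CPM. The split by Car1 was made after the values had been seen.

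Several genes stood higher in the 18 cells than in the 2. Sycn, first known from pancreatic secretory granules, was at 3945 CPM in the 18 and 536 CPM in the 2. Agr2, which folds mucins, was at 1537 and 166 CPM. Wfdc2, a secreted protease inhibitor that was singled out after its values were seen, was at 1427 and 38.3 CPM, and Adh1, an alcohol dehydrogenase, at 1144 and 76.6 CPM. Over all 20 members, the 11 goblet cell markers summed to 3052 CPM against 2080 CPM in other colonocytes, from 9.64 to 68.3 UMIs per 10000 over cells, with Kit at 0. The 14 colonocyte markers summed to 14239 against 49022 CPM. The part of goblet cell RNA in these results was not tested.

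Against other colonocytes of their own library, the 20 barcodes differed in 15.4% of 7938 genes upward and 8.6% downward. Of 26 mature colonocyte genes 23 were lower, with a median log2 ratio of -1.92, and of 16 brush border genes 12 were lower. Slc51b, at 61.9 and 248 CPM, and Slc10a2, at 10.0 (3.68 to 21.8) and 27.7 CPM, were lower, and Slc51a was at 15.0 (6.88 to 28.6) and 28.2 CPM, a log2 ratio of -0.91 (-2.04 to 0.03). Of the 9 bile acid genes only Fabp6 of the rule was higher and 3 were lower. The median log2 ratio over all genes was 0.29. Against the Atp12a-positive cells alone, Slc10a2 stood at 0.01 and Car1 at 0.20, where against the pooled classes they stood at -1.47 and -1.83. Slc51a had 9 of 598229 UMIs in members and 52 of 8652650 in Atp12a-positive cells, so against that class it was higher in members.

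Few genes set members apart from other colonocytes in both libraries. Of 7151 genes measured in both, 38 were at least 2-fold higher in each (0.531%) and 123 lower in each (1.72%). Another 16 (0.224%) were higher in the whole-labelled library and lower in the other, and 36 (0.503%) the reverse. Rnf186, an E3 ubiquitin ligase of the colon epithelium, was at 257 against 73.7 CPM in the whole-labelled library and at 197 against 45.2 CPM in the GFP-labelled library. Its log2 ratios were 1.80 (1.70 to 1.91) and 2.12 (1.84 to 2.40). Sult1a1, a phenol sulfotransferase, followed at 1.34 and 1.65. Eci1, of the oxidation of unsaturated fatty acids, stood at 1.29 and 1.19, and the ribonuclease Rnase4 at 1.20 and 1.28. The next were Cat (catalase), L1cam, Add3, Hoxb9, Idh2, Irf8, Cyr61 and Tcea3, whose smaller ratio of the 2 libraries lay between 0.88 and 1.05. Those with a smaller ratio below 1 did not reach 2-fold in both libraries. Rnase4 fell below other cells, at -0.07, when all other kept barcodes of the whole-labelled library served as the comparison.

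Of the 123 genes lower in both libraries, the 12 named here have the widest gaps by the smaller ratio of the 2 libraries, among those of at least 50 CPM. The rule itself kept cells with Atp12a, or with both Krt20 and Clca4a, out of the members, so low levels of genes that go with these are in part fixed by the selection. Aqp8 was at 14.2 and 18.4 CPM in members and 683 and 831 CPM in other colonocytes, with log2 ratios of -5.59 and -5.50 (-6.50 to -4.66). Tgm3, a transglutaminase, was at 15.9 and 26.8 CPM against 805 and 225 CPM. Ly6g had ratios of -5.83 and -4.25 and 2010109I03Rik of -4.90 and -5.73. Rbp2 (a retinol carrier), Rhoc, Ly6c1, 2010003K11Rik, Gprc5a and Cyp2d34 had ratios between -4.00 and -2.21. Saa1, an acute phase protein, was at 1629 against 8287 CPM and at 125 against 3820 CPM, and Slc26a3 at -2.40 and -3.65. The rule parts the members from the Atp12a-positive cells by Atp12a. In the surface cells of the whole-labelled library, which like the members have at most 1 Atp12a UMI, Aqp8, Saa1 and Slc26a3 were at 683, 4488 and 509 CPM, above the members as well.

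Between the libraries, members of the GFP-labelled library had less RNA of bile acid genes. Of 9 measured, 6 were at least 2-fold lower, Fabp6 of the rule among them, and none higher. The other 3 were Abcc3 (-0.08, -0.45 to 0.28), Vdr (-0.74) and Nr1i2 (-0.30). With Fabp6 included, the list had a median log2 ratio of -1.46 against 0.13 over all genes. This median is the ratio of Fabp6 itself, which the rule used. In these cells 10.9% of 8099 genes were at least 2-fold higher in the GFP-labelled library and 10% lower, against 1.63% and 2.9% among other colonocytes. The 2 pairs of shares are not comparable, since 10 CPM is 5.98 UMIs in these 20 cells and counting error is larger there. At a minimum of 50 CPM, 246 genes were higher and 316 lower in the members. Since 18 of the 20 cells have Car1 at the level of barcodes high in Muc2 and 1 Slc51a UMI among them, a difference in kind of cell and one between libraries cannot be told apart. Slc51a was at 511 and 15.0 CPM, a log2 ratio of -5.09 (-6.22 to -4.16). Slc10a2 was at 209 and 10.0 CPM (-4.38, -5.83 to -3.25), Slc51b at 333 and 61.9 CPM (-2.43), Nr1h4 at 140 and 61.9 CPM (-1.18) and Cyp3a13 at 150 and 48.5 CPM (-1.63). Among other colonocytes the same ratios were -1.71, -1.35, -0.04, -0.28 and -0.66, so Slc51a and Slc10a2 were lower there too and Slc51b hardly differed.

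The members without a Slc51a UMI were also compared between the libraries, 35 against 17. Picking cells by Slc51a makes the libraries more alike in that gene and in genes that go with it, so these values do not show what set the ratios over all members. Among them Fabp6 was at 997 and 1186 CPM, Slc51b at 110 and 50.5 CPM (-1.13, -1.86 to -0.44), Nr1h4 at 60.8 and 42.1 CPM (log2 ratio -0.53, -1.39 to 0.29) and Slc10a2 at 12.8 and 4.21 CPM (8 and 2 UMIs, -1.60, -4.88 to 0.72). Cyp3a13 stood at 0.54 (-0.43 to 1.52), its sign turned. Slc51b and Slc10a2 thus still stood over 2-fold apart, the latter on few UMIs. Car1 was lower in the GFP-labelled library, at 3852 and 564 CPM, as was Reg3b at 8581 and 166 CPM. Hoxb13 was higher at 112 and 320 CPM, a log2 ratio of 1.51 (1.10 to 1.94), and Sycn at 78.4 and 3987 CPM. This comparison was added after the values had been seen.

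The 10 genes furthest below in the GFP-labelled library included 4 of the interferon response list, the lectin gene Reg3b and the bile acid transporter genes Slc51a and Slc10a2. Reg3b was at 23251 and 702 CPM, a log2 ratio of -5.05, and was also lower in other colonocytes (-2.84). Of 29 interferon response genes, 17 were at least 2-fold lower and none higher, against 10% lower and 10.9% higher over all 8099 genes. Ifi27l2b was at 661 and 11.7 CPM, and Ifit1 at 168 and 3.34 CPM (2 UMIs, log2 ratio -5.65, -8.70 to -3.79). Ifit2 was at 118 CPM and had no UMI in the GFP-labelled library, a log2 ratio of -4.55 or lower at a floor of 3 UMIs. In other colonocytes these 3 genes stood at -4.22, -1.35 and -2.49, so they were lower in that library outside the members as well. Saa1 (-3.70), Oasl2 (-4.48), the serine protease gene Prss30 (-4.55) and Apol10a (-3.78) complete the 10 lowest with Slc51a and Slc10a2.

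The 10 genes furthest above in the GFP-labelled library were Xist and the 9 that follow. Retnlb, the antibacterial goblet cell product, was at 12.7 and 839 CPM (log2 ratio 6.05), and at 5.73 in other colonocytes. Cd177 (5.91), Clca3b (4.25) and Plet1 (4.27) were higher in other colonocytes too (3.98, 2.66 and 4.12). Sycn (4.98), Adh1 (3.78) and Agr2 (3.53) stood at 0.03, 0.14 and 0.97 there. Sycn and Adh1 were thus higher in the members with little difference in the other colonocytes, while Agr2 was nearly 2-fold higher there too. Hoxb13 was at 24.95 CPM (21.0 to 29.4) and 289 CPM (248 to 336), a log2 ratio of 3.53 (3.21 to 3.86), against -1.20 in other colonocytes. Ccl20, a chemokine that attracts B and dendritic cells, was at 1.73 and 423 CPM, but 230 of its 253 UMIs (90.9%) came from 1 cell, and the log2 ratio of 7.93 became 5.26 without the member with the most Ccl20 UMIs in each library.

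For the list counts that follow, 10.9% of all 8099 genes were at least 2-fold higher in members of the GFP-labelled library and 10% lower. Of 14 posterior Hox and position genes, 8 were higher in the GFP-labelled library and 3 lower (Hoxb6, Hoxb7 and Cdx2). This comparison shares the members of the whole-labelled library with that against other colonocytes, so the 2 splits are not independent. All 8 measured goblet cell markers, Muc2 of the rule among them, were higher, with a median log2 ratio of 2.67. Goblet cell RNA was higher in this library outside the members too. The 11 goblet cell markers summed to 466 and 3052 CPM in members of the whole-labelled and GFP-labelled libraries. In other colonocytes they summed to 935 and 2080 CPM. Of 7 MHC class II genes 5 were higher, with Cd74 at 752 and 2217 CPM, and in other colonocytes Cd74 differed more (2.79 against 1.56). Of 26 mature colonocyte genes 13 were lower and 3 higher. Clca4a, which the rule used, its relative Clca4b, and Ly6g are the 3.

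**Figure D5:**
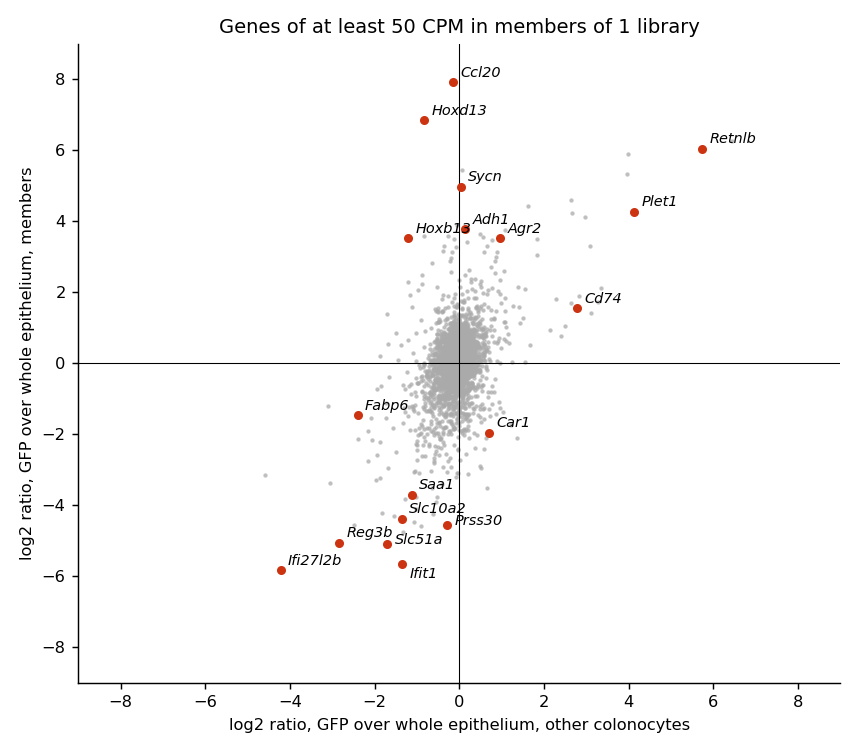
Each point is 1 of 3140 genes of at least 50 CPM in members of 1 library. The x axis gives the log2 ratio of the GFP-labelled library over the whole-labelled library in other colonocytes and the y axis the same in members. Retnlb, Reg3b and Ifi27l2b differ in both, while Sycn (0.03 and 4.98) and Hoxb13 (-1.20 and 3.53) differ otherwise in members than in other colonocytes.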

How the data were processed

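The deposited values are UMI counts for each gene and barcode, which the authors obtained with Cell Ranger on mm10. The submitters' processing notes name version 2.1.1, while the matrix headers name 3.1.0, and the chemistry is 3' v2 per the labels' protocols. The matrices hold 31053 genes, of which 35 symbols occur more than once, and are not normalised. Barcodes were filtered and members chosen by the rule given at the start. The members and gene lists were chosen with earlier results of these data known. UMIs were summed per group of cells and given as CPM. With 1 library per group there was no test and no p-value. A gene at 0 was set to a floor of 3 UMIs for ratios. No doublet caller was run. One gene is not reported here. Named genes were the bile acid list, the given markers, the extremes of each list, the 10 highest and 10 lowest genes between libraries by the interval bound nearest 0 (at least 200 UMIs), and the 12 highest and 12 lowest against other colonocytes by the smaller ratio of the 2 libraries (at least 50 CPM). Other names (Hoxd13, Wfdc2, Xist and those in splits of the members) were chosen after their values were seen. Alternatives changed each limit of the rule, the weighting, the depth, the CPM minimum and the comparison cells. The code was tested on simulated counts. Python 3.11.15, numpy 2.4.6, scipy 1.17.1, pandas 2.3.3 and matplotlib 3.10.9 were used.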

Additional observations from a re-analysis of the deposited data

Results flagged for a closer look

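Only genes of the lists and named genes were searched here. For 12 of them, members lay at least 2-fold on 1 side of the other colonocytes in the whole-labelled library and at least 2-fold on the other side in the GFP-labelled library, with neither counting interval reaching 0. Over all 7151 genes measured in both libraries, whatever their intervals, 16 (0.224%) were higher and then lower and 36 (0.503%) the reverse. The difference between the libraries was not tested, and 18 of the 20 cells of the GFP-labelled library have Car1 at the level of barcodes high in Muc2 and hold 1 Slc51a UMI among them. Log2 ratios of members over other colonocytes are given in the order whole epithelium, GFP. Higher and then lower were the bile acid transporter gene Slc10a2 (1.56 and -1.47), Prap1 (1.81 and -1.51), Apol10a (1.48 and -1.26), 1810065E05Rik (1.43 and -1.62), the retinaldehyde dehydrogenase gene Aldh1a1 (1.29 and -2.08), the monooxygenase gene Fmo5 (1.40 and -1.34) and the cell division gene Cdc20 (1.01 and -2.12). Of the 462 UMIs of 1810065E05Rik in members of the GFP-labelled library, 254 came from 1 cell. Lower and then higher were the distal genes Hoxb13 (-3.38 and 1.36) and Hoxd13 (-4.72 and 2.97), the alcohol dehydrogenase gene Adh1 (-1.45 and 2.19), the cytochrome gene Cyp2c68 (-1.91 and 2.47) and the chemokine gene Ccl20 (-3.53 and 4.55), whose level in the GFP-labelled library rests mostly on 1 cell. Cdc20 and Fmo5 have few UMIs in the GFP-labelled library (intervals of -5.17 to -0.25 and -2.97 to -0.10).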

How the results depend on the processing

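No paired analysis was possible because each group has 1 library and no result comes from a test. Counts of genes at least 2-fold apart depended most on the processing. Between the libraries, 882 genes were higher and 812 lower in the members of the GFP-labelled library. The higher count became 1922 with each cell thinned to 5000 UMIs, and a minimum of 50 CPM gave 246 higher and 316 lower. The 38 genes higher in members than in other colonocytes in both libraries became 19 with at most 15% mitochondrial UMIs, 60 without barcodes above the 95th percentile of UMIs, 106 with equal weight per cell, 160 after thinning, 7 at a minimum of 50 CPM, 71 against Atp12a-positive cells alone and 8 against all other kept barcodes. The 123 lower genes became 64 at 50 CPM, 192 against surface cells alone and 218 against all other kept barcodes. Fewer genes enter at the stricter minimum, and the cause of the other shifts was not tested. The member share of the whole-labelled library was 2.80% and 6.24% with a Fabp6 minimum of 10 and 3 per 10000, and 3.93% with at most 15% mitochondrial UMIs. That of the GFP-labelled library was 0.278% with a minimum of 10 and 0.252% with Muc2 under 5 per 10000, a limit that 10 of the 20 cells met.

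In all, 3 alternatives were chosen after the data had been seen. With only members that have a Slc51a UMI, 96 genes were higher in both libraries, and with only those that have none 322 were higher and 378 lower. Changes of sign were recorded only for log2 ratios that were at least 2-fold in the main setting. For members over other colonocytes in the GFP-labelled library, Car1 changed sign (0.20 against Atp12a-positive cells alone and 0.22 with only Slc51a-bearing members). Slc10a2 did so there too (0.013 and 0.22 under the same settings). In the whole-labelled library, Slc10a2 (-2.47 with only members without Slc51a) and Rnase4 (-0.066 against all other kept barcodes) changed sign. For the GFP-labelled library over the other in members without Slc51a, Cyp3a13 (0.54) and Fabp6 (0.25) did. Smaller ratios that turned, such as that of Slc51a against Atp12a-positive cells in the GFP-labelled library, are not among these. Of 1158 log2 ratios of genes recomputed under the alternatives set out at the start, 866 stayed within their counting interval. Another 289 moved, and 3 that were at least 2-fold changed sign. Counts of genes are not among the 1158 and were taken as moved beyond 1.5 times. The number of members is small in the GFP-labelled library, where 20 cells hold 598229 UMIs, against 246 in the whole-labelled library.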

Other observations

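Within the members of the whole-labelled library, Reg3b ran from 0.521 to 1312 UMIs per 10000, with a median of 32.8. The 84 cells with 100 or more held 95.3% of the members' Reg3b UMIs, while the 80 cells with fewer than 10 held 0.613%. Reg3g, the related lectin, was at 9369 CPM in the former and 136 CPM in the latter, and the acute phase gene Saa1 at 3795 and 231 CPM. Cd74, the invariant chain of MHC class II, had the opposite order, at 99.1 and 1198 CPM. Slc51a was at 694 and 318 CPM, and Fabp6 at 2469 and 2515 CPM. The 82 cells between had Fabp6 at 5107 CPM and Cd74 at 1011 CPM, with a median of 11428.5 UMIs per cell. These bands were chosen after the values had been seen, and all the cells come from 1 library.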
